A study of Homo sapiens with 6 samples.

Results

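The actin cytoskeleton and the genes that serum response factor (SRF) is known to switch on were followed through 35 named genes in a human colon cancer cell line. The 35 are a list of gene symbols, drawn up with earlier results of these data known, and each was read from the probe set of that gene with the highest mean over all arrays, called its brightest here. Of the 35, 31 had a probe set that carried their symbol alone and were among the 19775 genes tested. ACTG1, the cytoplasmic γ-actin gene, was read only from probe sets shared with ACTB, and FHL1, FLNA and TPM3 were not analysed here. The series holds 6 oligonucleotide arrays of DLD-1, a colorectal adenocarcinoma line. Of these, 3 came from the subclone labelled DLD-1Δα-Cat and 3 from the subclone labelled DLD-1α-Cat. Both subclones had been grown for 96 h without treatment in a three-dimensional gel of type I collagen at 1 mg/ml. Neither the meaning of Δα-Cat nor the way the subclones were obtained is spelled out in the labels, and each subclone is a single derived population of the line.

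SRF is a transcription factor that binds a short promoter element, the CArG box. In textbook accounts it works with cofactors of the myocardin family (MRTF), which are held back by monomeric actin and set free when actin polymerises, or with ETS-type ternary complex factors, which respond to growth factor signalling. The first route drives genes of actin and its binding proteins, the second immediate-early genes such as FOS and EGR1. In epithelial cells, actin filaments form the belt at adherens junctions, to which αE-catenin connects the cadherin complex, and the core of the microvilli on the apical surface. The comparison asked whether RNA of these genes differed between the subclones in the collagen gel.

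The promoter windows show what the SRF link of the list looks like in sequence. Those of SRF, EGR1, TGFB1I1, FHL2 and TAGLN2 are printed here, for each gene a window with the most CArG boxes. They are RefSeq windows of build GRCh38.p14 that run from 250 bases before to 50 bases after an annotated start, 5′ to 3′ on the gene's strand, and capitals mark CArG boxes. The box was searched as CC, then 6 letters each A or T, then GG, a form that reads the same on both strands, and no other motif was searched.
SRF (chr6:43171019-43171318, plus strand): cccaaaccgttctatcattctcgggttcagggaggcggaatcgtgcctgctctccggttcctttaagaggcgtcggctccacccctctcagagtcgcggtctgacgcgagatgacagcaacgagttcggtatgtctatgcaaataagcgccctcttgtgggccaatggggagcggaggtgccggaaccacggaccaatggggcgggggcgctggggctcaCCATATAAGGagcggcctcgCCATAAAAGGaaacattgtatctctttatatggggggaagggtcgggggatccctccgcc
EGR1 (chr5:138465229-138465528, plus strand): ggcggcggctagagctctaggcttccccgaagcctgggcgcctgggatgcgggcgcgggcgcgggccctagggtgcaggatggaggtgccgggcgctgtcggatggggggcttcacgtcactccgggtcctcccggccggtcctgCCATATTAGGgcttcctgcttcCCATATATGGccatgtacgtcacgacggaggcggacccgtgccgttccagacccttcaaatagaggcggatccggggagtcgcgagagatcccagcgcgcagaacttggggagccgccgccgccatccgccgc
TGFB1I1 (chr16:31472955-31473254, plus strand): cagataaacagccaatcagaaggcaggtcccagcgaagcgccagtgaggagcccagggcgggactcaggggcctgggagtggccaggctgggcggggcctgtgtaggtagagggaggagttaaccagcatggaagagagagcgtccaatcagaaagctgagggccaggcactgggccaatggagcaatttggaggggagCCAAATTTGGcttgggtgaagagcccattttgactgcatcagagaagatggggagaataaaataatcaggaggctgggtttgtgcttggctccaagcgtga
FHL2 (chr2:105438464-105438763, minus strand): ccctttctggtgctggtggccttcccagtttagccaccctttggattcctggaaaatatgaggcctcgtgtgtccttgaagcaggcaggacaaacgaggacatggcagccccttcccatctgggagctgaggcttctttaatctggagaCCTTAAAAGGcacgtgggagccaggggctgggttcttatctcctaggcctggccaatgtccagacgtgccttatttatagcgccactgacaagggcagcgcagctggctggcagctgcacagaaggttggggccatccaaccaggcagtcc
TAGLN2 (chr1:159925458-159925757, minus strand): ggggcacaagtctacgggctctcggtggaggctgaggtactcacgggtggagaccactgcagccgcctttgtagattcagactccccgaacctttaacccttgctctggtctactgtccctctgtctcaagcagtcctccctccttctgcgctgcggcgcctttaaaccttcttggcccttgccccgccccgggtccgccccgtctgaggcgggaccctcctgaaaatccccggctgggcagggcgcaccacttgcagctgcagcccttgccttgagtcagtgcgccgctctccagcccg

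RefSeq windows matched 31 of the 35 genes (all but ACTB, MYL9, TAGLN and VIL1), and 12 of the 31 (38.7%) had a CArG box in at least 1 window. Of all 27305 genes with a window 1.6% had one. Counted by window, 14 of the 70 windows of the listed genes had a box, against 1.29% of all 35116 windows. The list includes known SRF targets, so this contrast was in part built into it, and it was not tested. SRF and EGR1 carried 2 boxes each, beginning 30 and 10 bases before the start in SRF and 105 and 83 bases before it in EGR1. In the gene of smooth muscle γ-actin, ACTG2, 2 boxes began 110 and 73 bases before the start. Single boxes stood in windows of LPP, MYO1E, CNN2, TPM4 and TGFB1I1, of ACTG1, FHL1 and FLNA, and at 2 places among the 4 windows of FHL2. The TGFB1I1 box lay in 1 of its 3 windows, 51 bases before the start, and none of the 3 windows of TAGLN2 held one. The 2 windows of TPM2 and the 1 of CNN1, not printed, held none either. A match says only that these letters are present in the window. A missing match says only that this exact form is absent there, since other forms and sequence outside the windows were not searched.

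The values are log2 intensities, and a difference of 1 is a factor of 2 on that scale. They lay between 1.95 and 15.15, with array medians of 6.12 to 6.15. The level of 1 gene is not set against that of another, since probes differ in brightness. No detection calls were used, so values below the median of all probe sets, 6.12, are called dim here and may not rise above background. Every difference subtracts DLD-1α-Cat from DLD-1Δα-Cat and is given with limma's standard error (SE) and with p adjusted by Benjamini-Hochberg over all 19775 genes. As a check of the labels, CTNNA1 (αE-catenin) stood at 12.75 ± 0.0324 in DLD-1α-Cat and, lower, at 11.23 ± 0.193 in DLD-1Δα-Cat (SD, n = 3 for both), a difference of -1.52 (adjusted p = 0.000838). Of 10 colon epithelial markers, the general ones EPCAM (13.41 and 13.46) and E-cadherin (CDH1, 13.46 and 13.41) were bright in both subclones. CEACAM5 stood at 7.12 in DLD-1Δα-Cat and was dim, at 5.66, in DLD-1α-Cat (difference 1.46, adjusted p = 0.145). Of 10 fibroblast markers 0 passed limma's test (2 at an unadjusted p under 0.05), and their mean level lay at 4.50 to 4.58 in DLD-1Δα-Cat and 4.44 to 4.78 in DLD-1α-Cat. Whether the arrays of 1 subclone stand for separate cultures is not stated, and the p-values therefore reflect the spread among these samples alone, which may be technical.

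Most genes of the actin and SRF set stood at nearly the same level in both subclones. Of the 31, TGFB1I1 was called higher and TAGLN2 lower in DLD-1Δα-Cat, and 29 were not called. That is 6.45% of the members against 5.52% of all genes (3.84% called higher and 1.67% lower), so the share of members called was near that of the whole array. The median difference of the members was -0.004, beside -0.030 for all genes tested. In size, 21 of the 31 differences (67.7%) were under 0.2, as were 58% of those of all genes, and only TPM2, TGFB1I1 and TAGLN2 reached 0.5. Without any overlap between the subclones' arrays stood 2 members on the higher side (TGFB1I1, TPM2) and 4 on the lower side (TAGLN2, CNN1, FHL2, TPM4). The background is 14.1% of all genes on the higher and 13.1% on the lower side. In a bulk sample, fewer cells with a transcript and less of it per cell cannot be told apart.

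**Figure D1:**
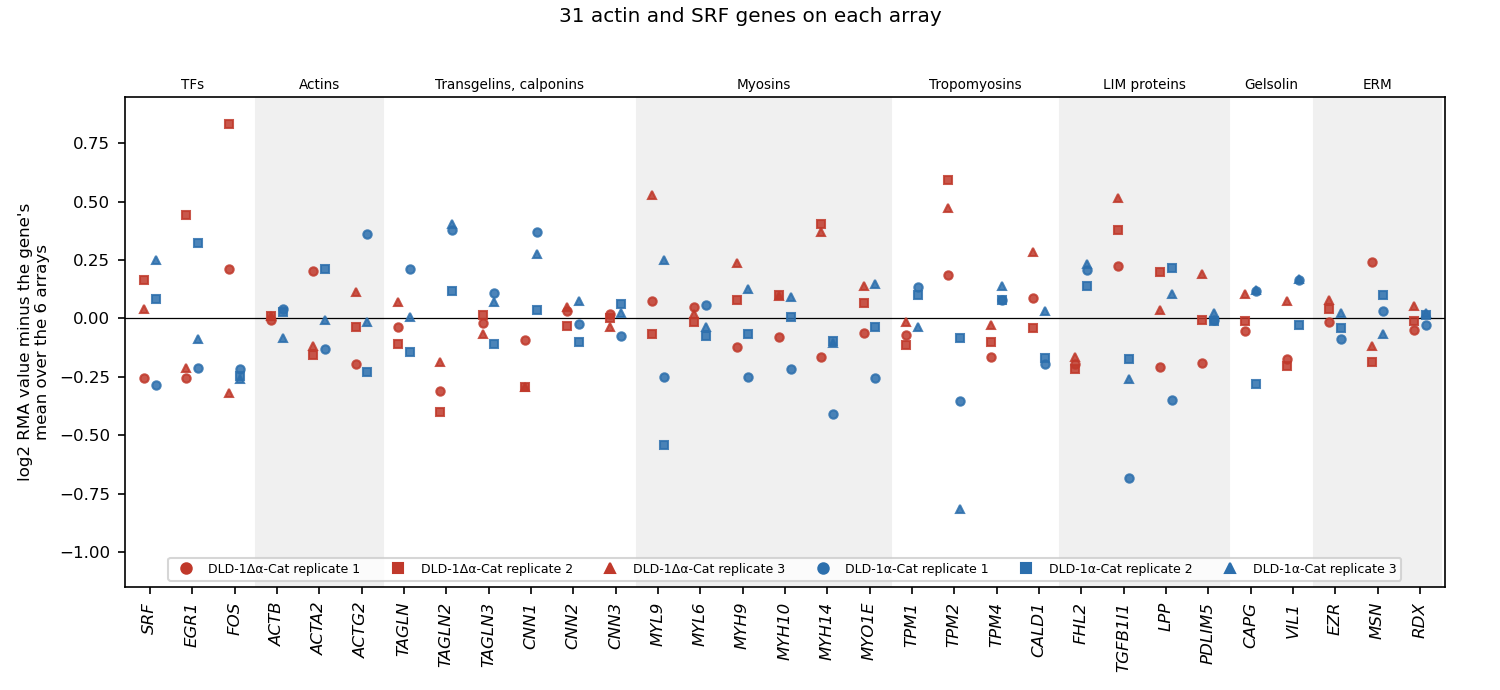
Each point is 1 array: the vertical axis gives its log2 RMA value minus the gene's mean over the 6 arrays, for the 31 tested genes ordered by role (TFs, transcription factors; Gelsolin, gelsolin family; ERM, ezrin, radixin and moesin). Red is DLD-1Δα-Cat, blue DLD-1α-Cat, and the marker shape gives the replicate number. The colours separate in TAGLN2, CNN1, TPM2, TPM4, FHL2 and TGFB1I1 and are mixed in the other 25 genes.

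No difference in SRF itself was detected. It stood at 9.57, 9.99 and 9.86 in DLD-1Δα-Cat and at 9.54, 9.90 and 10.07 in DLD-1α-Cat. The groups overlapped fully, and replicate 1 was the lowest array of each subclone. The difference was -0.033 (SE 0.171, adjusted p = 0.928, 95% interval -0.43 to 0.37), so a difference in SRF beyond 0.43 in size lies outside the interval. The immediate-early transcription factor EGR1 stood at 13.34, 14.03 and 13.38 against 13.38, 13.92 and 13.50, with replicate 2 the brightest of each subclone. Its difference was -0.017 (SE 0.221, adjusted p = 0.974), and its arrays differed more within a subclone than the subclone means did. FOS, a subunit of the AP-1 transcription factor, stood at 6.102, 6.72 and 5.57 against 5.68, 5.64 and 5.63. Its spread (SD) was 0.576 in DLD-1Δα-Cat but 0.0231 in DLD-1α-Cat, the widest and among the narrowest of the set, and the difference of 0.48 did not pass (adjusted p = 0.340). EGR1 and FOS were given array by array after their values had been seen.

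**Figure D2:**
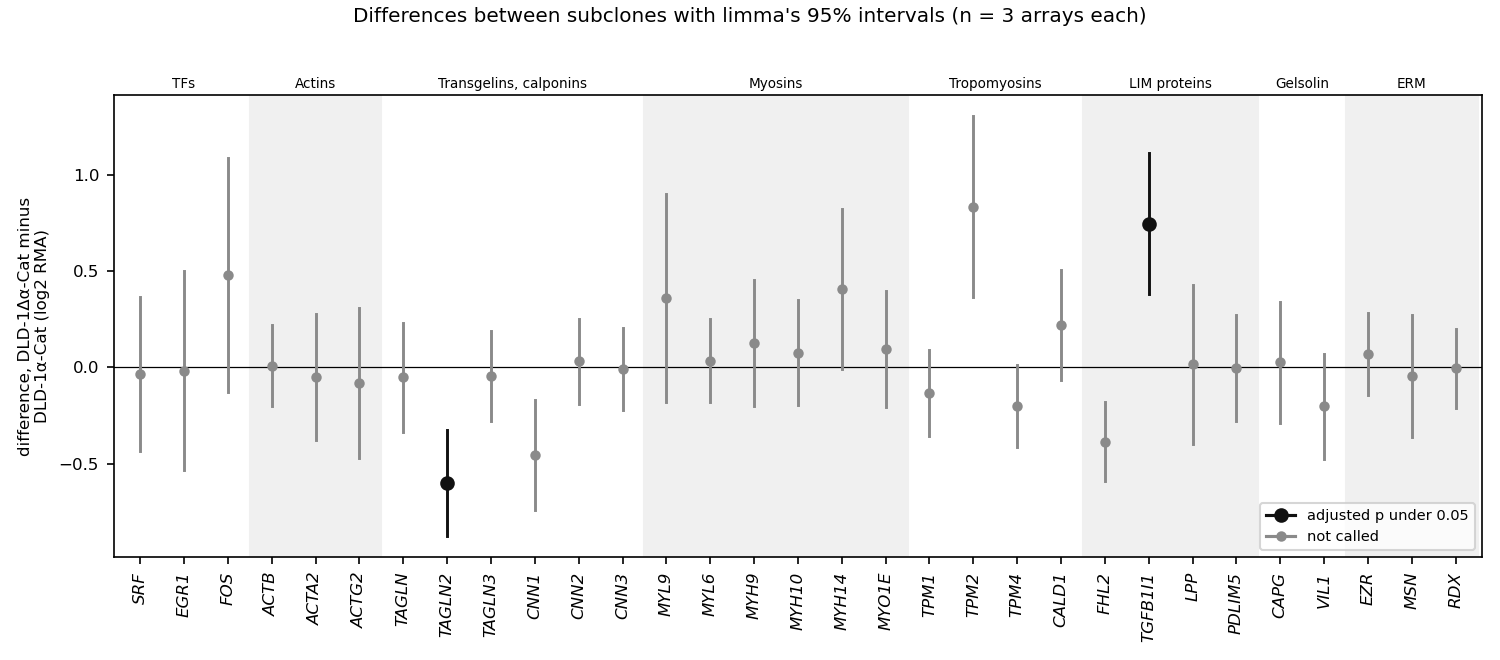
The vertical axis gives the difference between subclones (DLD-1Δα-Cat minus DLD-1α-Cat, log2 RMA) for each of the 31 genes, with limma's 95% interval as a bar. Black marks the called genes TGFB1I1 (0.75) and TAGLN2 (-0.60). The intervals of CNN1, FHL2 and TPM2 also lie to 1 side of 0 without passing after adjustment.

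With the control probe sets left aside, no difference in actin RNA was detected where a probe set named 1 actin gene. ACTB, the cytoplasmic β-actin of all cells, was at 14.74 ± 0.0093 in DLD-1Δα-Cat, beside 14.73 ± 0.067 for the other subclone (SD, 3 arrays each). It was near the highest value on any array, 15.15, and its difference of 0.010 carried an interval of -0.20 to 0.22. The smooth muscle actins ACTA2 and ACTG2 differed by -0.049 (adjusted p = 0.867) and -0.079 (adjusted p = 0.813), and ACTG2 was dim in both subclones. For γ-actin, 9 probe sets listed under both ACTG1 and ACTB gave differences from -0.23 to -0.12. In 6 of the 9 the arrays did not overlap, beside 13.1% of all genes without overlap on the lower side. The 9 share their target genes, so they do not count as 9 separate observations. Of the 9 probe sets 0 passed (lowest adjusted p = 0.348 in a limma fit over all probe sets). Their mean stood at 13.15, 13.32 and 13.38 in DLD-1Δα-Cat and at 13.40, 13.46 and 13.50 in DLD-1α-Cat, all 3 arrays of the first below those of the second. For that mean a two-sided exact permutation test gave p = 0.1, which is the lowest value open to 3 arrays a side.

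Further along the β-actin RNA a similar split was seen. The array carries control probe sets for its 3′ end, middle and 5′ end. The 3′ set stood at 14.29 ± 0.0092 and 14.29 ± 0.054, a difference of -0.002. The middle set stood at 11.12, 11.11 and 11.28 against 11.43, 11.61 and 11.95, and the 5′ set at 9.12, 8.92 and 9.21 against 9.48, 9.44 and 9.87. For the middle and the 5′ set the lowest array of DLD-1α-Cat was above the highest of DLD-1Δα-Cat. The log2 ratio of 3′ to 5′ was 5.20 ± 0.159 against 4.69 ± 0.291 (SD, n = 3 each), a difference of 0.52 (exact permutation p = 0.1, two-sided, the smallest possible here). For GAPDH, a glycolytic enzyme with controls of the same kind, the ratio was 0.75 ± 0.067 against 0.66 ± 0.144 (exact permutation p = 0.4, two-sided). A 3′ to 5′ gradient can come from RNA quality or from labelling, and the cause of this one was not tested. Its part in the differences of TAGLN2, TGFB1I1 and the other members was not tested either.

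**Figure D3:**
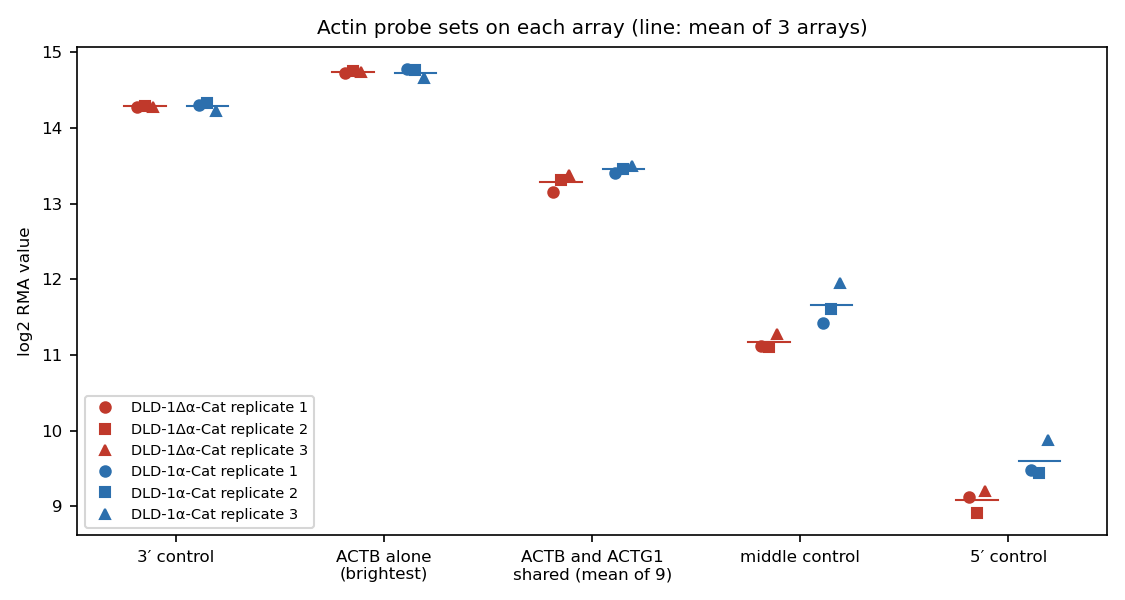
The vertical axis gives the log2 RMA value of actin probe sets on each array (red DLD-1Δα-Cat, blue DLD-1α-Cat; shapes are replicates, lines are means of 3). The subclones coincide near 14.3 on the 3′ control and near 14.7 on ACTB alone, and DLD-1Δα-Cat lies lower on the shared ACTB and ACTG1 sets, the middle control and the 5′ control.

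Among transgelins and calponins, small actin-binding proteins that share a calponin-type domain, TAGLN2 fell and 5 of the 6 members were not called. TAGLN2 (transgelin 2, the form widespread outside muscle) stood at 10.18, 10.09 and 10.31 in DLD-1Δα-Cat and at 10.87, 10.61 and 10.90 in DLD-1α-Cat. The highest array of the first subclone was below the lowest of the second. The difference was -0.60 (SE 0.118, adjusted p = 0.0319), or 1.51-fold, and its dimmer probe set gave -0.57. The call was lost when 1 array was left out, in 5 of 6 such runs: the adjusted p was 0.0960, 0.130 and 0.0716 when replicate 1, 2 or 3 of DLD-1Δα-Cat was dropped. It was 0.0739 and 0.118 when replicate 1 or 3 of DLD-1α-Cat was. It was 0.0588 when every probe set was tested. CNN1, the calponin of smooth muscle, was at 4.75, 4.55 and 4.55 against 5.21, 4.88 and 5.12. These dim values did not overlap either, but the difference of -0.45 did not pass (adjusted p = 0.0834). The smooth muscle marker TAGLN (SM22α) differed by -0.050 on its brightest probe set (interval -0.33 to 0.23), while its 2 dimmer ones stood at 0.24 and 0.29 and did not pass. The calponins of non-muscle cells, CNN2 (0.033) and CNN3 (-0.010), and the neuronal TAGLN3 (-0.045, dim) lay near 0 on their brightest probe sets. The dimmer CNN3 probe set gave -0.28 without overlap between the subclones' arrays. It was not called (adjusted p = 0.318 in a limma fit over all probe sets).

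All 6 myosin members had differences above 0, from 0.036 to 0.41. Without replicate 1 of DLD-1α-Cat, MYH10 and MYO1E lay just below it, at -0.0111 and -0.0068. None of the 6 was called by limma, 0 of 6 had an unadjusted p under 0.05, and in each the arrays of the subclones overlapped. MYH14, the heavy chain of non-muscle myosin IIC, stood at 11.39, 11.96 and 11.93 against 11.15, 11.46 and 11.45, and only replicate 1 of DLD-1Δα-Cat fell within the range of the other subclone. Its difference was 0.41 (SE 0.177, adjusted p = 0.250, or 0.0750 with the replicate number as a block). Its 4 bright probe sets gave 0.36 to 0.42, and the 2 dimmer ones gave 0.03 and -0.26. The heavy chains of non-muscle myosin IIA (MYH9, 0.13) and IIB (MYH10, 0.08) and the class I myosin MYO1E (0.10) had adjusted p of 0.635 to 0.739. The regulatory light chain MYL9, a common SRF target of contractile cells, differed by 0.36 (adjusted p = 0.415, or 0.0796 with the block) on 1 probe set and by -0.27 on the other. The essential light chain MYL6 stood at 14.30 and 14.27 in the 2 subclones on its brightest probe set. On its dimmer one it stood at 8.72, 8.91 and 9.32 against 7.85, 8.34 and 8.17, a difference of 0.86 that did not pass (adjusted p = 0.0724).

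Tropomyosins, which coil along actin filaments, gave opposite values for different genes and different probe sets. TPM2 (β-tropomyosin) stood at 7.995, 8.40 and 8.28 in DLD-1Δα-Cat and at 7.46, 7.73 and 6.9955 in DLD-1α-Cat without overlap. This was the widest difference of the set at 0.83 (SE 0.2001), and it narrowly missed the threshold (adjusted p = 0.0588). The 3 other TPM2 probe sets, all dimmer, stood at -0.18, -0.15 and -0.18, and the mean of the 4 gave 0.08. TPM1 differed by -0.13 (adjusted p = 0.468) on its brightest probe set, and all 6 of its probe sets lay below 0, down to -0.59 (adjusted p = 0.0711). In 3 of the 6 the arrays did not overlap, beside 13.1% of all genes without overlap on the lower side. The dim TPM1 probe sets lay near 0, at -0.0022 and -0.0455. TPM4 was at 11.67, 11.74 and 11.81 against 11.92, 11.91 and 11.98, a small difference of -0.20 without overlap (adjusted p = 0.273). Of its 5 probe sets 4 lay below 0, and in the one with the widest difference, -0.32, the arrays did overlap. Caldesmon (CALD1), which holds tropomyosin-coated filaments away from myosin, differed by 0.22 (adjusted p = 0.348). Its 11 probe sets split into 6 above and 5 below 0.

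Among LIM-domain proteins, which carry zinc-finger pairs and sit at focal adhesions and stress fibres, TGFB1I1 rose and the other 3 were not called. TGFB1I1 (Hic-5), a paxillin relative that shuttles between focal adhesions and the nucleus, stood at 11.31, 11.46 and 11.59 in DLD-1Δα-Cat and at 10.40, 10.90 and 10.82 in DLD-1α-Cat. Every array of the first subclone was above every array of the second, and replicate 1 of DLD-1α-Cat was the lowest. The difference was 0.75 (SE 0.157, adjusted p = 0.0391), or 1.68-fold, from the only probe set of the gene. The adjusted p was 0.0703, 0.129 and 0.130 when replicate 1, 2 or 3 of DLD-1Δα-Cat was dropped, 0.103 when replicate 3 of DLD-1α-Cat was, and 0.0667 with every probe set tested. FHL2, a cofactor of SRF and of nuclear receptors, stood at 11.92, 11.90 and 11.95 against 12.32, 12.26 and 12.35. The arrays of each subclone lay close together (SD 0.027 and 0.047) and did not overlap with the other's. The difference of -0.39 (SE 0.0882) had an adjusted p of 0.0516. FHL2 passed in 6 of the 8 alternatives that kept all arrays and in 0 of the 6 that left 1 out. LPP (0.017), of adhesion sites and junctions, and PDLIM5 (-0.004), which links protein kinases to the Z-disc and stress fibres, lay near 0. PDLIM5 probe sets ranged from -0.35 to 0.30 without a call.

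Actin filament severing and capping was represented by the gelsolin family. CAPG, which caps filament ends, differed by 0.03 (adjusted p = 0.927). Villin (VIL1), which bundles actin in the microvilli of intestinal cells, differed by -0.20 (adjusted p = 0.370). All 4 villin probe sets lay below 0, down to -0.50, and 0 of 4 passed. In ERM proteins, which tie the membrane to cortical actin, ezrin (EZR) stood at 13.99 and 13.92 and radixin (RDX) at 13.00 and 13.01, with differences of 0.071 and -0.005. On these brightest probe sets the 95% intervals were -0.14 to 0.28 for EZR and -0.21 to 0.20 for RDX. Dimmer probe sets reached 0.27 for EZR and -0.28 for RDX, without a call. Moesin (MSN) was dim on both of its probe sets, at 3.73 and 3.78 on the brighter one.

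The choice of probe set mattered for some members and not for others. The 31 genes had 100 probe sets, 9 of the genes having just 1, and in a fit over all probe sets 0 of the 100 were called in either direction. Probe sets of 1 gene agreed in sign for TAGLN2, TPM1, VIL1, ACTB, ACTA2, ACTG2, CNN3, MYL6, MYH10, EGR1, EZR and RDX. They disagreed for SRF, TAGLN, MYL9, MYH14, TPM2, TPM4, CALD1, LPP, PDLIM5 and MSN, in several of them at a difference near 0.

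**Figure D4:**
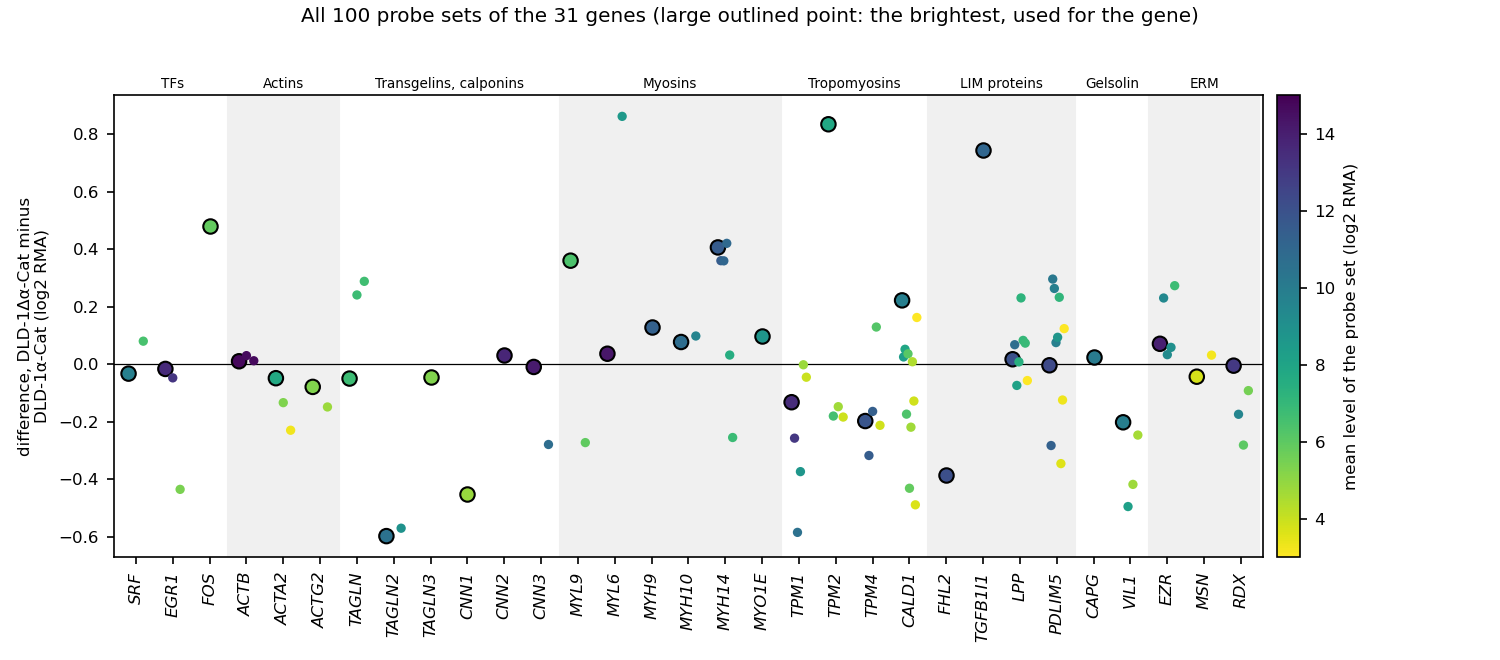
Each point is 1 of the 100 probe sets of the 31 genes. The vertical axis gives its difference (DLD-1Δα-Cat minus DLD-1α-Cat, log2 RMA), the colour its mean level, and the outlined point is the brightest, which stands for the gene. Both TAGLN2 points lie near -0.6, while TPM2 has 1 point at 0.83 and 3 below 0.

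Differences of members with a CArG box matched in a window lay on either side of 0, as did those of members without a match. Of the 27 tested members with a promoter window, 9 had a box, with differences from -0.39 (FHL2) to 0.75 (TGFB1I1) and a median of -0.017. The 18 without a box had a median of 0.011, and the call on the lower side, TAGLN2, was among them. Over all 15384 tested genes with a window, 256 had a box. Their median difference was -0.053 against -0.026 for those without, and 12 of the 256 were called higher (4.69%) and 6 lower (2.34%). Of the 15128 without a box, 581 (3.84%) were called higher and 250 (1.65%) lower, and the difference between these shares was not tested.

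The SRF cofactors and the wider actin machinery outside the 35 genes held a few larger differences. Over 5 lists with 109 different measured genes, 4 were called higher and 4 lower, and the median difference was 0.011. The share called, 7.34%, was near the 5.52% of all genes tested. None of the 6 SRF cofactors passed limma's test, though 3 had an unadjusted p under 0.05. MRTFA, the actin-sensing myocardin-related factor, differed by -0.02 and its relative MRTFB by 0.29 (adjusted p = 0.195), with MRTFB arrays of 12.51, 12.70 and 12.67 against 12.21, 12.47 and 12.34. The ternary complex factor ELK3 differed by -0.46 (adjusted p = 0.132). Of 28 further SRF targets 2 were called higher. FERMT2 (kindlin-2), an integrin activator, stood at 8.33, 7.85 and 7.60 against 4.07, 4.68 and 5.999, a difference of 3.01 (SE 0.456, adjusted p = 0.0123), from dim values in DLD-1α-Cat. Its other 2 probe sets were not called. Cardiac actin, ACTC1, differed by 0.48 (adjusted p = 0.0472) at dim levels and lost its call when the replicate number was blocked on (adjusted p = 0.0669). Vinculin (VCL) differed by 0.02 and the matricellular CCN1 by -0.52 (adjusted p = 0.213).

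Of the 8 called genes, MYLK and FSCN1 fell the most. MYLK, the kinase that phosphorylates the regulatory light chain and so activates myosin II, stood at 9.40, 9.25 and 9.46 in DLD-1Δα-Cat and at 10.58, 11.09 and 10.87 in DLD-1α-Cat. Its difference of -1.48 (SE 0.146, adjusted p = 0.00229) was 2.78-fold and kept its call without any 1 array. Of its 5 probe sets 2 were called lower and 2 lay above 0, up to 0.146. The mean of the 5 gave -0.60 (adjusted p = 0.0148). Formins, which elongate unbranched filaments, gave values of either sign: DIAPH3 differed by -0.58 (adjusted p = 0.0342) and FHOD1 by -0.48 (adjusted p = 0.0341), while FMNL3 differed by 0.57 (adjusted p = 0.0181). With the replicate number as a block FHOD1 had an adjusted p of 0.0541. Of 27 crosslinkers and capping proteins, fascin (FSCN1), which bundles filopodial actin, fell from 10.11 ± 0.217 to 9.14 ± 0.0379 (SD, n = 3 each; adjusted p = 0.00706). The dimmer of its 2 probe sets gave -0.31 and was not called, and the mean of the 2 gave -0.64 (adjusted p = 0.0106). Tropomodulin 2 (TMOD2), which caps pointed ends, differed by 0.81 (adjusted p = 0.0419) on its brighter probe set and by 0.018 on the other. The mean of the 2 gave 0.41 (adjusted p = 0.153), and the call was also lost with centring (0.0539) and with every probe set tested (0.0695). Of 14 microvillus genes 0 passed limma's test and 2 had an unadjusted p under 0.05 (lowest adjusted p = 0.223; 0.231 for the ERM kinase STK10).

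Leaving out 1 array ended some of these calls. MYLK, FSCN1 and FERMT2 passed in all 6 such runs. FMNL3 passed only without replicate 1 or 2 of DLD-1α-Cat, with adjusted p of 0.0534 to 0.0918 in the 4 others. DIAPH3, FHOD1 and TMOD2 passed only without replicate 2 of DLD-1α-Cat, and ACTC1 only without replicate 1 of that subclone. In their other runs the adjusted p was 0.0606 to 0.134 for DIAPH3, 0.0563 to 0.132 for FHOD1, 0.0713 to 0.151 for TMOD2 and 0.0856 to 0.170 for ACTC1.

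**Figure D5:**
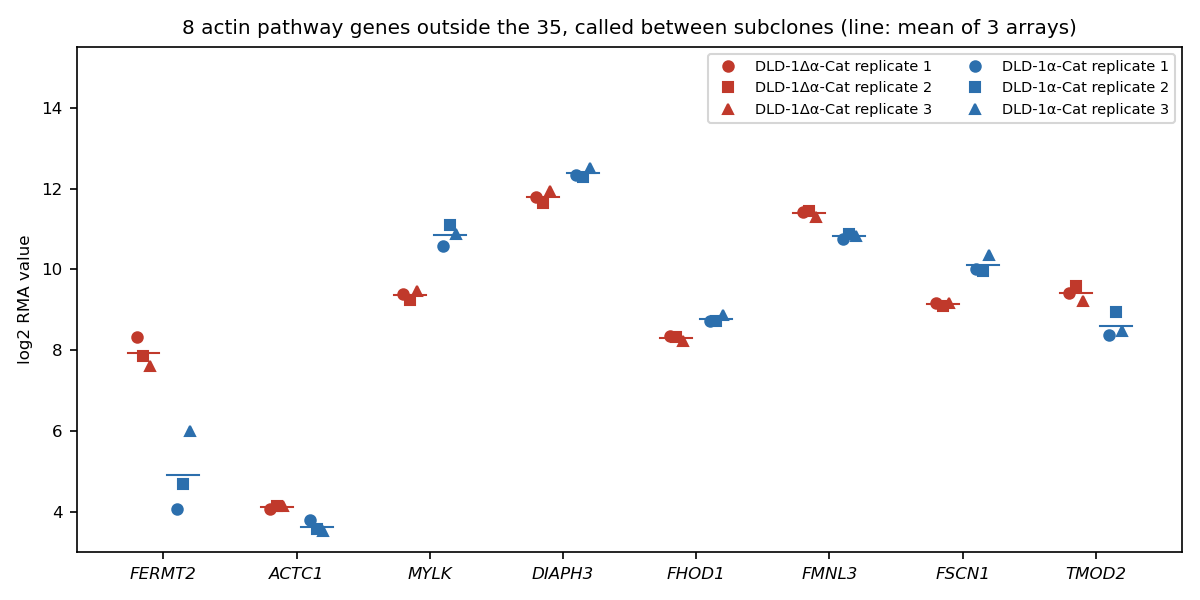
The vertical axis gives log2 RMA values on each array for the 8 called genes of the 5 actin pathway lists (red DLD-1Δα-Cat, blue DLD-1α-Cat; shapes are replicates, lines are means of 3). MYLK (-1.48) and FSCN1 (-0.97) stand lower in DLD-1Δα-Cat on every array, and FERMT2 (3.01) higher, with 1 DLD-1α-Cat array at 5.999.

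Markers of muscle and other cell types were read beside the smooth muscle members. Of 8 genes listed as smooth muscle markers, MYLK was called lower and ACTC1, the cardiac actin that was dim here, higher. The mean level of the 8 lay at 6.13 to 6.29 in DLD-1Δα-Cat and 6.36 to 6.57 in DLD-1α-Cat. That mean includes MYLK, which had by far the largest difference of the 8 (-1.48), and a mean without MYLK was not taken. Of the 8, 6 lay below 0, the median was -0.167, and 4 had an unadjusted p under 0.05. SYNPO2 differed by -0.39 (adjusted p = 0.108) and MYOCD by -0.33 (adjusted p = 0.234), both dim, and the defining genes MYH11 and DES by -0.10 and -0.06 (adjusted p = 0.791 and 0.886). Of 5 endothelial and 3 measured leukocyte markers 0 passed limma's test, with 1 of each at an unadjusted p under 0.05, and the leukocyte mean lay at 3.72 to 3.91 against 3.996 to 4.21, dim in both. Of the 10 colon epithelial markers the keratin KRT20 was called higher (4.89) and the intestinal transcription factor CDX1 lower (-1.09). The part of these markers in the values of CNN1, TAGLN and ACTA2 was not tested.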

How the data were processed

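Total RNA of 6 samples was measured on oligonucleotide arrays with 54675 probe sets. The deposited log2 values were made by the authors with RMA; the submitters' processing notes name Affymetrix Expression Console, with no version in the sources used here. RMA equalises the arrays' distributions, so a shift shared by all transcripts is removed. After leaving out 62 control probe sets, 41091 had a single symbol in the platform annotation, 1801 had several and 11721 were unnamed here. By gene ID, 41037 matched RefSeq.

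The comparison used limma 3.58.1 under R 4.3.3 (functions lmFit and eBayes, two-sided, threshold 0.05), both groups in 1 model, with no filter on dim genes. The code was tested on simulated data. Groups and replicate numbers come from the titles. Across genes, the deviations from the group mean had correlations of 0.225, 0.376 and 0.122 between arrays of the same number, all over 0.1. For replicates 1, 2 and 3 of DLD-1Δα-Cat the highest correlation with another number was -0.091, -0.0205 and 0.0666. The numbers may therefore pair the samples, least clearly for replicate 3, though no label states a pairing. The main fit and the permutation tests do not use the pairs. Blocking on that number was 1 alternative. The others were quantile normalization, centring, leaving out genes whose mean lay below 6.12, averaging the probe sets of a gene, testing every probe set, a variance trend with robust estimation, array weights, and leaving out each array. Single values were compared with exact permutation tests. The members and gene lists were chosen with earlier results of these data known. All tested members are named. Values on every array are given for SRF, for called members and for non-overlapping members with a difference of at least 0.3. In each pathway or marker list up to 5 called genes are named, or else the most different gene above the median of all genes. Further genes were named after their values had been seen. The counts of 1 pathway list are not reported here.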

Additional observations from a re-analysis of the deposited data

How the results depend on the processing

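Of the 31 members, 26 kept the same side of the threshold in every alternative run, and 5 (TAGLN2, TGFB1I1, TPM2, FHL2 and CNN1) did not; no called difference changed sign. The main count was 1 member higher and 1 lower. It was 2 higher without dim genes, with a variance trend and robust estimation, and with array weights (TPM2 added each time), and 0 with every probe set tested. It was 2 lower with quantile normalization, centring, dim genes left out, the mean of probe sets, and the variance trend (FHL2 added each time), 3 with array weights (FHL2 and CNN1 added), and 0 with every probe set tested. Without 1 array the counts ranged from 0 to 2 in either direction. Over all genes, 760 higher and 331 lower became 1150 and 564 with the variance trend, 196 lower with every probe set tested and 549 lower with array weights. Without 1 array they were 323 to 854 and 116 to 348. The runs without 1 array had fewer arrays, and the run with every probe set made more tests. The cause of these moves was not tested. With the replicate number as a block, the member counts were again 1 and 1 (TGFB1I1 adjusted p = 0.0261, TAGLN2 0.0269), and among the called pathway genes the block ended the calls of ACTC1 and FHOD1. Centring ended those of ACTC1 (0.0591) and TMOD2, the mean of probe sets that of TMOD2, and testing every probe set those of ACTC1 (0.0875), DIAPH3 (0.0631), FHOD1 (0.0680) and TMOD2. The members' median difference stayed between -0.0068 and 0.0261 without 1 array, and was 0.0235 with the mean of probe sets and 0.0066 after quantile normalization. The β-actin 3′ to 5′ difference lay between 0.35 and 0.62 without 1 array and was 0.49 against the middle set. With 3 arrays a subclone the precision is limited, and the 5 members whose mean lay below 6.12 (ACTG2, TAGLN3, CNN1, FOS and MSN) may not rise above background.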

Other observations

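In some immediate-early and growth-response genes the same replicate number was the highest in both subclones. EGR3, a relative of EGR1, stood at 5.72, 6.19 and 5.17 in DLD-1Δα-Cat and at 5.37, 6.03 and 5.73 in DLD-1α-Cat. The matricellular protein CCN1 stood at 9.12, 9.64 and 9.05 against 9.47, 10.11 and 9.79, and CCN2 at 6.40, 6.82 and 5.97 against 6.105, 6.93 and 6.57. As in EGR1, replicate 2 was the highest array of each subclone in these 3 genes. It was also the highest in FOSB, at 6.74, 6.78 and 6.72 against 6.44, 6.96 and 6.85, though the DLD-1Δα-Cat arrays lay close together there. In JUNB, at 10.86, 11.03 and 10.95 against 10.67, 10.83 and 10.86, replicate 3 was the highest of DLD-1α-Cat. In FOS (5.68, 5.64 and 5.63) and IER2 (13.26, 13.20 and 13.23) it was replicate 1. These genes were picked after their values had been seen, and no test was run on the pattern.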
